A study of Mus musculus with 16 samples.

Results

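The genes described here are 40 factors of the nucleolus and of ribosome biogenesis, a list of 40 of the 55385 genes in the deposited table, chosen by gene name with earlier results of these data known. They comprise 5 subunits of RNA polymerase I, the 3 proteins Fbl, Nop56 and Nop58 of the box C/D particle, the 4 proteins of the box H/ACA particle, 5 abundant organisers of the nucleolus, 13 factors of the small ribosomal subunit and 10 of the large subunit. Their RNA was measured in bulk in microglia, the resident macrophages of the retina, sorted on EGFP from Iba1-EGFP mice, before and after a crush of the optic nerve. In all 4 groups the strain was Iba1-EGFP, and the promoter of Iba1 is also used by other macrophages. The day 0 mice had no treatment and were 15 weeks old, the day 2 and day 4 mice had an optic nerve crush and were 13 weeks old, and the day 7 mice had the crush and were 16 weeks old. Each day had 4 libraries, 16 in all. Age and day cannot be told apart, except between days 2 and 4, and no sham operation is named in the labels used here. Whether the libraries of a day came from separate animals is not said in the labels, and p-values here measure only the spread between samples, possibly a technical one.

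The nucleolus is the part of the nucleus where RNA polymerase I transcribes the genes for ribosomal RNA. Small nucleolar RNAs (snoRNAs) guide proteins to this RNA: the box C/D particle adds methyl groups to riboses and the box H/ACA particle turns uridines into pseudouridines. Assembly factors then fold, cut and export the precursors of the small and large subunits, and cells that grow or divide generally make more ribosomes than resting cells do.

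The libraries held 8647276 to 15708302 reads, recovered from the table, and 9315 to 16522 genes reached 1 FPKM in a library. FPKM counts fragments relative to gene length and library size. For 1 kb of gene, 3 reads, the most that a listed 0 allows, came to 0.191 to 0.347 FPKM by library, a limit for counting error only. All 12 microglial marker genes were above 0 in all 16 libraries, with sums of 3278 to 12985 FPKM. Genes of rods were also present, with sums of 1580 to 10772 FPKM over 10 genes. The sample titles end in a code with 4 values. Its first 4 digits separate replicates 1 and 2 of each day, here called batch 1, from replicates 3 and 4, here called batch 2, although no label names a batch. By the full code, no day 2 library shares a value with a day 4 library. Day 2 replicates 3 and 4 are the only libraries whose titles begin with F.

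All 40 genes passed the filter of at least 1 FPKM in at least 4 libraries, as did 14795 genes in all. Their mean levels over the 16 libraries ran from 0.711 FPKM for Polr1a to 181 FPKM for Npm1. Detection was uneven: 12 genes reached 1 FPKM in all 16 libraries, and 22 were listed at 0 in at least 1 library. At day 4, 33 of the 40 genes reached 1 FPKM in all 4 libraries of the day, against 17 at day 0, 19 at day 2 and 15 at day 7. Since all 37 mitochondrial genes of the table were at 0 too, such values are called listed at 0 and no more.

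**Figure D1:**
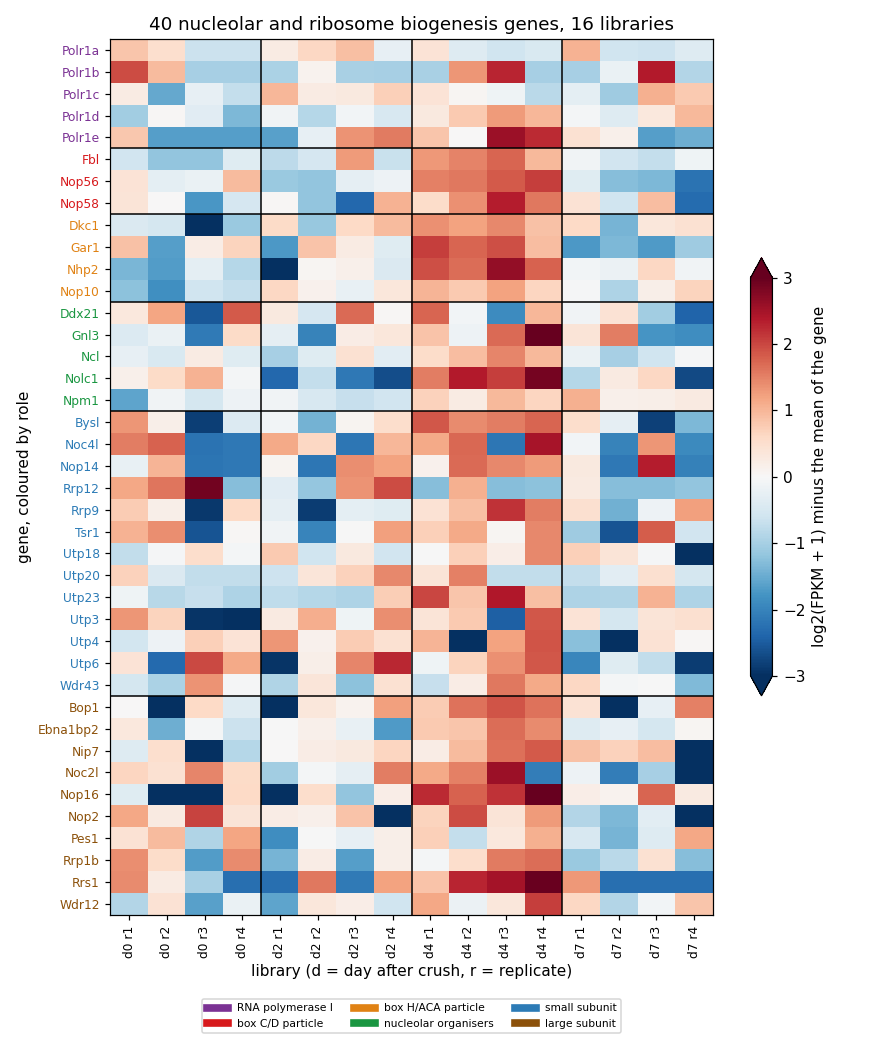
Each row is 1 of the 40 genes, named in the colour of its role, and each column is 1 of the 16 libraries (d is the day after crush, with d0 untreated, and r the replicate). Colour gives log2(FPKM + 1) minus the gene's mean over the libraries, limited to 3 on either side. The 4 day 4 columns hold most of the red cells, while Rrp12, Polr1a and Ddx21 do not follow them.

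The 40 genes together were highest at day 4. Their summed level was 503 to 531 FPKM at day 0, 505 to 670 at day 2, 1120 to 1590 at day 4 and 444 to 771 at day 7. The lowest day 4 library thus lay above the highest library of every other day. As means over 4 libraries, the sums were 514 ± 11.9 (SD) FPKM at day 0, 566 ± 73.6 at day 2, 1343 ± 244 at day 4 and 638 ± 140 at day 7. The mean of log2(FPKM + 1) over the genes gives each gene the same weight, and it was 2.76, 2.86, 4.06 and 2.61 at the 4 days in turn. Of the 40 genes, 31 had their highest mean log2 level at day 4 (77.5%, against 38.3% of all genes tested), 6 at day 2 and 3 at day 0.

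**Figure D2:**
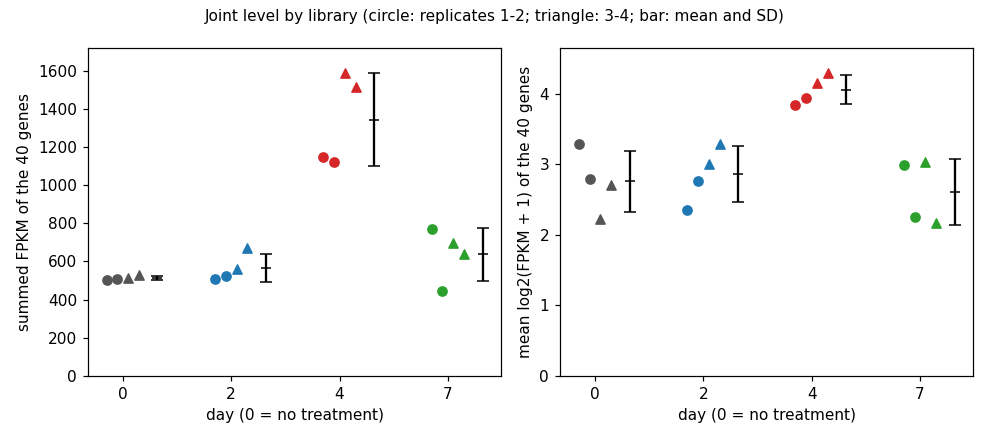
The left panel shows the summed FPKM of the 40 genes and the right panel their mean log2(FPKM + 1), each point being a library and each bar the mean and SD of 4 libraries. In both panels the 4 day 4 libraries lie above all the others, with sums of 1120 to 1590 FPKM.

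Each gene was tested with limma on log2(FPKM + 1), with p-values adjusted by the Benjamini-Hochberg method over all 14795 genes, and a gene is said to have risen or fallen where its adjusted p was under 0.05. Between day 0 and day 4, 10 of the 40 genes rose (25%) and none fell. Among all genes tested, 4.62% rose and 0.716% fell in the same comparison. The 10 were Nop10, Nhp2, Fbl, Nop16, Polr1d, Utp23, Ncl, Npm1, Dkc1 and Nop56, and 20 genes had an unadjusted p under 0.05, all of them with a higher level at day 4. The median change of the 40 genes was 1.47 on the log2 scale, and 35 of the 40 changes were above 0, whereas the median over all genes was 0.16. Within batch 1 the median change was 0.76 and within batch 2 it was 1.83. In 16 genes (40%) all 4 day 4 libraries lay above all 4 day 0 libraries, which held for 12.6% of all genes. With median-of-ratios scaling, which moved the median of all genes from 0.16 to -0.16, the median of the 40 genes was 1.06 and 2 of them rose. With 1 library left out, 2 of the 40 genes rose without day 4 replicate 2, 4 without day 4 replicate 1, 3 or 4, 5 without day 0 replicate 3 and 6 without day 0 replicate 2 or 4.

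Markers of other retinal cells moved between the same groups. Of 10 bipolar cell genes, 2 fell at day 4 by limma (Pcp2 and Cabp5; 1 gene with limma voom on the recovered reads). Their median change from day 0 to day 4 was -1.73 (-2.55 in batch 1 and -1.18 in batch 2), none of the 10 changes was above 0, and the sums were 60.2 to 375 FPKM at day 0, 23.8 to 383 at day 2, 22.7 to 56.3 at day 4 and 95.7 to 339 at day 7. Of 12 Mueller glia and astrocyte genes, 1 fell at day 4 by limma (Glul; 2 genes with voom). Their median change was -2.01 (-3.63 in batch 1 and -0.28 in batch 2), and 1 of the 12 changes was above 0. The sums were 2333 to 4199 FPKM at day 0, 1701 to 2662 at day 2, 588 to 6550 at day 4 and 2113 to 3661 at day 7. Apoe, which microglia also express, was the most abundant gene of the list, at 487 to 6476 FPKM at day 4. Aqp4, a defining Mueller and astrocyte marker, was listed at 0 in all 4 day 4 libraries. From day 4 to day 7 the median changes were 0.98 for rod, 0.99 for bipolar and 1.16 for Mueller glia and astrocyte genes. Changes above 0 were 10 of 10, 10 of 10 and 11 of 12 in this order. Of these genes only Pcp2 was called there (limma). In bulk libraries, fewer cells of a type and less RNA per cell cannot be told apart. Of 5 tested genes of border-associated macrophages, Lyve1 fell from 9.47 to 0.306 FPKM at day 4, a change of -2.95 ± 0.53 (SE) (limma, adjusted p = 0.00713), while the median of the 5 was 1.06 (0.83 in batch 1 and 1.82 in batch 2). Of the 8 monocyte genes, 2 were tested and none was called at day 4 (limma; 1 at an unadjusted p under 0.05, none with voom). Among them Plac8 was at means of 0.244, 2.87, 4.15 and 10.3 FPKM at days 0, 2, 4 and 7. At day 4 it was at 10.2 and 6.24 FPKM in batch 1 and at 0.0977 and 0.08 in batch 2. Plac8 rose by 3.14 ± 0.58 (SE) from day 0 to day 7 (limma, adjusted p = 0.031, not called with voom). From day 0, 1 of the 2 tested genes had a change above 0 at day 4, and likewise at day 7. The sums of the 8 genes were 0.411 to 42.9 FPKM at day 0, 0.389 to 13.1 at day 4 and 6.43 to 24.0 at day 7. Ccr2 was at most 0.18 FPKM in any library. With the mean levels of the bipolar and Mueller lists as covariates in the fit, the median change of the 40 genes was 2.02, but none of the 40 and none of all the genes tested was called, and the part of any of these cells in the result was not tested further.

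No gene of the 40 rose or fell between day 0 and day 2 by limma, when 0.25% of all genes rose and 0.0608% fell. There were 4 genes at an unadjusted p under 0.05 and none with voom. The median change was 0.12, and it was -0.38 in batch 1, 0.72 in batch 2 and -0.03 with median-of-ratios scaling, so it had no settled direction. Between day 2 and day 4, days of the same age, Nop56, Nhp2 and Nolc1 rose (7.5% of the 40 genes) and none fell, while 0.433% of all genes rose and 0.0203% fell. The median change was 1.13, with 1.25 in batch 1 and 1.21 in batch 2, and the median over all genes was 0.16. In 13 genes (32.5%) every day 4 library lay above every day 2 library, compared with 7.83% of all genes. Without the 2 day 2 libraries whose titles begin with F none of the 40 genes was called, nor was any other gene, and the median change was 1.55. With the full title code, which these days do not share, in place of the batch, none of the 40 and none of all genes was called either, at a median change of 1.31. The count was also 0 without any one of day 2 replicates 3 and 4 and day 4 replicates 2, 3 and 4, and 1 without day 2 replicate 1 or day 4 replicate 1.

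Between day 4 and day 7, Nop56, Gar1, Ncl and Nolc1 fell (10% of the 40 genes) and none rose. Among all genes tested 1.5% fell and 0.128% rose. The median change of the 40 genes was -1.46, against -0.25 for all genes, and 37 of the 40 changes were below 0. In 12 genes (30%) all 4 day 7 libraries lay below all 4 day 4 libraries, as was the case for 8.66% of all genes. The count was 1 without any one of day 4 replicates 1, 2 and 3 and day 7 replicate 2, and 2 without day 7 replicate 1. The comparisons at day 4 share the day 4 libraries, so that a high day 4 library enters the rise and the fall alike. No gene of the 40 was called by limma between day 0 and day 7 (9 at an unadjusted p under 0.05, none with voom), where 0.27% of all genes rose and 0.135% fell. None was called between day 2 and day 7 either (1 at an unadjusted p under 0.05, none with voom), where 0.0473% of all genes rose and 0.0473% fell. The median changes from day 0 and day 2 to day 7 were -0.06 and -0.32. The limma F test over the 4 days called 5 of the 40 genes (Nop56, Nolc1, Nop10, Nhp2 and Ncl) and 2.89% of all genes.

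**Figure D3:**
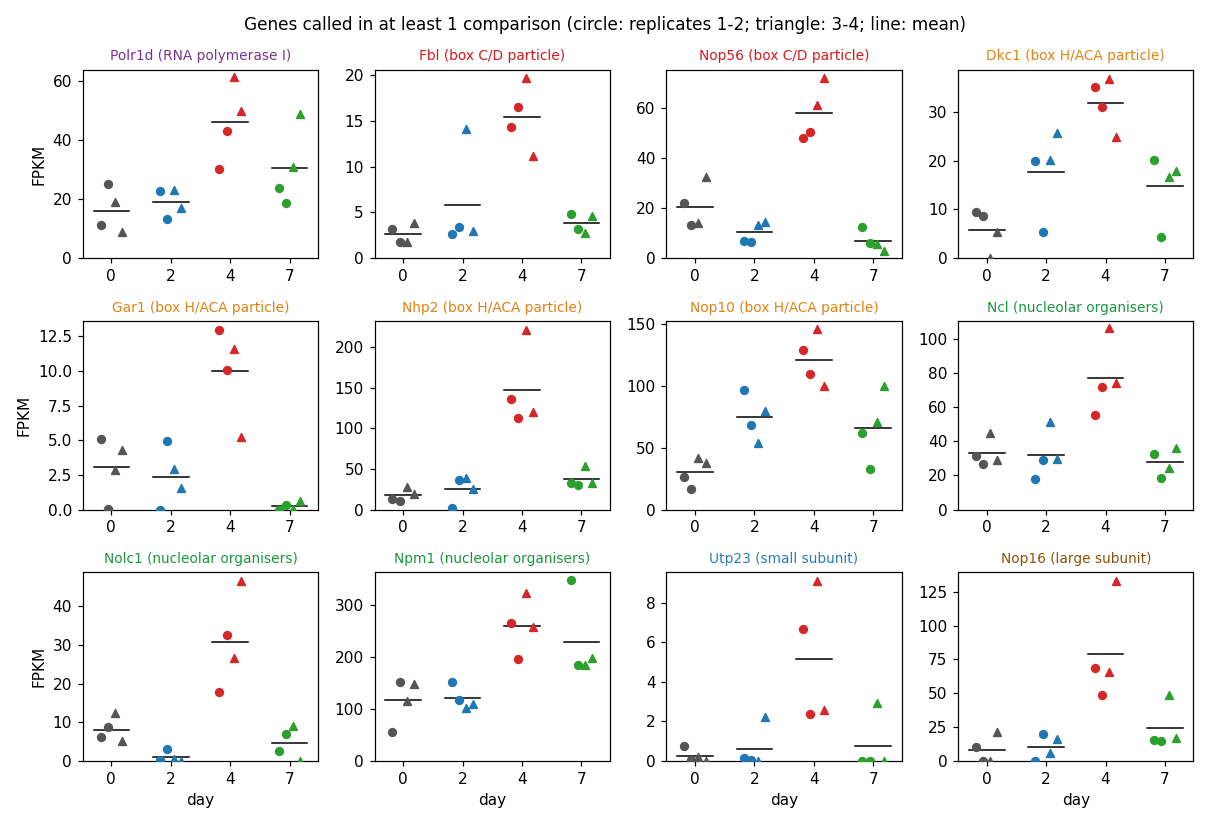
Each panel shows 1 of the 12 genes called in at least 1 comparison, with FPKM per library against the day; circles are replicates 1 and 2, triangles replicates 3 and 4, and lines are means of 4 libraries. In all 12 panels the 4 day 4 libraries lie above the 4 day 0 libraries, and Nop56 at day 7 lies below all its day 4 values.

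The box C/D particle carried 2 of the 10 rises at day 4. Fbl, fibrillarin, is the methyltransferase of the particle. Its level in the 4 libraries of each day, in the order of the replicates, was 3.16, 1.74, 1.72 and 3.83 at day 0, 2.60, 3.37, 14.1 and 2.93 at day 2, 14.3, 16.5, 19.7 and 11.2 at day 4 and 4.80, 3.18, 2.79 and 4.65 at day 7 FPKM. The day 4 libraries lay above all day 0 libraries, and at day 2 replicate 3 alone reached the day 4 range. The change from day 0 to day 4 was 2.2 ± 0.47 (SE) on the log2 scale (limma, adjusted p = 0.0156), with 2.27 in batch 1 and 2.13 in batch 2. Without day 4 replicate 2 the adjusted p was 0.0618, and it stayed under 0.05 in the other 15 fits that left out a library.

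Nop56 is a core scaffold of the same particle, which bridges the guide RNA and fibrillarin. Its levels were 21.9, 13.1, 14.1 and 32.4 at day 0, 6.99, 6.64, 13.3 and 14.5 at day 2, 48.0, 50.2, 60.9 and 71.6 at day 4 and 12.4, 6.11, 5.73 and 2.7 at day 7 FPKM. No library of another day reached the lowest day 4 value, and all 4 day 7 libraries were below all 4 day 0 libraries. Nop56 rose by 2.43 ± 0.42 (SE) from day 2 to day 4 (limma, adjusted p = 0.0227) and fell by 3.05 ± 0.42 (SE) from day 4 to day 7 (adjusted p = 0.00339). The fall was called in each of the 16 fits with 1 library left out. The rise from day 0 was 1.53 ± 0.42 (SE), with an adjusted p of 0.0497 that passed 0.05 in 13 of these 16 fits and reached 0.124. From day 0 to day 7 the change was -1.52 ± 0.42 (SE), which was not called (adjusted p = 0.168).

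Nop58 pairs with Nop56 in the particle. It was at 0.567 to 5.88 FPKM at day 0, 0.0292 to 9.76 at day 2, 6.65 to 26.1 at day 4 and 0.0660 to 8.93 at day 7. All day 4 libraries were above all day 0 libraries, but the change of 1.92 ± 0.82 (SE) did not pass the test (limma, adjusted p = 0.192). Near-identical copies of Fbl and Nop56 in the genome (at least 95% identity over at least 200 bases) make their levels uncertain, since the counting of reads with several places is not given in the sources used. The copy Gm5812 of Fbl went from 4.81 to 22.6 FPKM between day 0 and day 4, a change of 2.02 (adjusted p = 0.0109), and the copy Gm25432 of Nop56 from 6.96 to 21.5 FPKM, a change of 1.49 (adjusted p = 0.0262). Thus these copies, the most abundant one of each gene, changed in the same direction as the genes named. Reads that match both a gene and its copy may enter both levels. The shared direction is therefore no separate evidence. Fbl has 2 copies and Nop56 has 4, and the changes of the others were not examined. Over all libraries Gm5812 had a mean of 10.7 FPKM, above the 6.91 of Fbl.

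Several of the 40 genes hold snoRNA genes inside their own transcripts, and these RNAs are what the particles bind. In the GENCODE M21 annotation of GRCm38, 7 of the 40 genes (Dkc1, Gnl3, Ncl, Nop56, Nop58, Tsr1 and Wdr43) held 21 snoRNA genes on their own strand, and 10 of the 21 share bases with an annotated exon of the host. The sequences below, 5′ to 3′, are box C/D snoRNAs of the 3 hosts Nop56, Nop58 and Ncl. They are those named Snord that have exact forms of both boxes and lie in introns. Genes of snoRNAs with other names were not searched for these boxes. Capitals mark box C (TGATGA) near the 5′ end and box D (CTGA) near the 3′ end, where Fbl, Nop56 and Nop58 assemble.
Snord110 in Nop56, chr2:130275506-130275573, plus strand: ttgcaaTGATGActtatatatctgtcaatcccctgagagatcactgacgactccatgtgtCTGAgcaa
Snord11 in Nop58, chr1:59704790-59704873, plus strand: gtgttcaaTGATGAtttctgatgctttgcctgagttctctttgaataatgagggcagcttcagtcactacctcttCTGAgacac
Snord82 in Ncl, chr1:86356261-86356330, minus strand: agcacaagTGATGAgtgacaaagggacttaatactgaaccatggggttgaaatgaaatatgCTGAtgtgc
Box C begins at base 7 of Snord110 and at base 9 of Snord11 and Snord82, and box D at bases 61, 76 and 62 in this order. The levels of these RNAs themselves are not described, as their mean FPKM was at most 0.0516 in this library type, which is made from amplified cDNA.

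The box H/ACA particle had 3 of its 4 proteins among the rises at day 4, with a median change of 2.35. Nop10 is the smallest of its core proteins and binds the pseudouridine synthase. Its levels were 26.2, 16.9, 41.4 and 37.8 at day 0, 96.9, 68.6, 54.0 and 79.7 at day 2, 129, 109, 146 and 99.8 at day 4 and 61.7, 32.7, 70.7 and 99.99 at day 7 FPKM. Every day 4 library was above every day 0 and day 2 library, and the day 2 libraries were also above those of day 0. The change to day 4 was 2.01 ± 0.33 (SE) (limma, adjusted p = 0.00429), with 2.44 in batch 1 and 1.59 in batch 2, and it was called in each of the 16 fits with 1 library left out. The change to day 2, 1.31 ± 0.33 (SE), was not called (adjusted p = 0.142).

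Nhp2 is the RNA-binding protein of the particle. It was measured at 12.7, 10.2, 28.2 and 18.7 at day 0, 1.46, 36.3, 38.6 and 25.5 at day 2, 137, 113, 221 and 120.3 at day 4 and 32.9, 30.7, 53.8 and 32.4 at day 7 FPKM. The day 4 libraries were above all 12 others, and day 2 replicate 1 was far below the rest of its day. Nhp2 rose by 3.06 ± 0.61 (SE) from day 0 (limma, adjusted p = 0.0113), which was called in all 16 fits without 1 library, and by 3.03 ± 0.61 (SE) from day 2 (adjusted p = 0.0454), which was lost in 13 of them, with adjusted p up to 0.141. Its change from day 4 to day 7, -1.94 ± 0.61 (SE), was not called (adjusted p = 0.128), although the libraries of both days did not overlap.

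Dkc1, dyskerin, is the pseudouridine synthase. Its levels were 9.38, 8.61, 0 and 5.40 at day 0, 19.9, 5.34, 20.1 and 25.7 at day 2, 35.1, 30.9, 36.8 and 24.8 at day 4 and 20.1, 4.29, 16.7 and 18.0 at day 7 FPKM. Day 0 replicate 3 was listed at 0, and the highest day 2 library, replicate 4, overlapped the lowest of day 4. The rise from day 0 was 2.7 ± 0.71 (SE) (limma, adjusted p = 0.0402), with 1.76 in batch 1 and 3.63 in batch 2, and its call was lost in 9 of the 16 fits without 1 library, with adjusted p up to 0.1.

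Gar1 is the fourth protein, which helps to release the modified RNA. It had 5.11, 0.0574, 2.88 and 4.28 at day 0, 0, 4.98, 2.93 and 1.58 at day 2, 13.0, 10.1, 11.6 and 5.27 at day 4 and 0, 0.302, 0.0207 and 0.592 at day 7 FPKM. All day 4 libraries were above all others, and all day 7 libraries were below 1 FPKM. Gar1 fell by 3.12 ± 0.64 (SE) from day 4 to day 7 (limma, adjusted p = 0.0262), a call lost in 6 of the 16 fits without 1 library. Its change from day 0 to day 4 of 1.63 ± 0.64 (SE) was not called (adjusted p = 0.152). A snoRNA of the H/ACA class lies in Ncl, within an annotated exon, and is shown with the ACA trinucleotide near its 3′ end, which these proteins recognise, in capitals.
Snora75 in Ncl, chr1:86351169-86351301, minus strand: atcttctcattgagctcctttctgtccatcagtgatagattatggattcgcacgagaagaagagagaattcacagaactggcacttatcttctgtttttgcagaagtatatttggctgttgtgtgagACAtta

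Of the 5 organisers of the nucleolus, Ncl and Npm1 rose from day 0 to day 4 and Nolc1 rose from day 2 to day 4. Ncl, nucleolin, binds nascent ribosomal RNA and is among the most abundant nucleolar proteins. Its levels were 31.4, 26.9, 44.9 and 28.8 at day 0, 18.2, 29.0, 51.5 and 29.9 at day 2, 55.2, 72.1, 106 and 74.1 at day 4 and 32.7, 18.3, 24.4 and 36.3 at day 7 FPKM. The lowest day 4 value, in replicate 1, was above the highest value of every other day. Ncl rose by 1.19 ± 0.30 (SE) from day 0 to day 4 (limma, adjusted p = 0.0328) and fell by 1.44 ± 0.30 (SE) from day 4 to day 7 (adjusted p = 0.0274). Both were similar in the batches, with 1.09 in batch 1 and 1.28 in batch 2 for the rise, and were lost in 7 and 6 of the 16 fits without 1 library.

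Npm1, nucleophosmin, is a chaperone that forms the outer nucleolar layer. Its levels were 54.6, 152, 114 and 147 at day 0, 152, 118, 101 and 110.1 at day 2, 265, 196, 322 and 257 at day 4 and 348, 183, 185 and 197 at day 7 FPKM. All day 4 libraries exceeded those of days 0 and 2, and the day 7 libraries also exceeded them, with replicate 1 the highest of all 16. The rise to day 4 was 1.23 ± 0.32 (SE) (limma, adjusted p = 0.0399), lost in 9 of the 16 fits without 1 library. The change to day 7, 1.01 ± 0.32 (SE), was not called (adjusted p = 0.229). Npm1 has 4 near-identical copies with a summed mean of 117.5 FPKM, and its copy Gm9118 also rose between day 0 and day 4, by 1.6 (adjusted p = 0.00954), so the level of Npm1 itself is uncertain.

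Nolc1 is a phosphoprotein of the nucleolus and of Cajal bodies that accompanies snoRNA particles. It stood at 6.20, 8.72, 12.3 and 5.23 at day 0, 0.262, 2.97, 0.474 and 0.0358 at day 2, 17.7, 32.7, 26.6 and 46.5 at day 4 and 2.57, 6.91, 9.05 and 0 at day 7 FPKM. Here day 2 was the lowest day, with all 4 libraries below all of day 0, and day 4 the highest. Nolc1 rose by 4.18 ± 0.67 (SE) from day 2 to day 4 (limma, adjusted p = 0.0153) and fell by 2.88 ± 0.67 (SE) from day 4 to day 7 (adjusted p = 0.0447), calls lost in 6 and 13 of the 16 fits without 1 library. From day 0 the changes were -2.39 ± 0.67 (SE) at day 2 (adjusted p = 0.19) and 1.79 ± 0.67 (SE) at day 4 (adjusted p = 0.136), neither of them called.

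The other two organisers did not pass the test in any comparison. Gnl3, nucleostemin, is a GTP-binding protein of growing and stem cells, and was at 0 to 5.44 FPKM at day 0 and 2.89 to 38.2 at day 4. Those ranges overlapped, and the change was 1.94 ± 0.92 (SE) (limma, adjusted p = 0.25). Ddx21 is an RNA helicase that links transcription by polymerases I and II. Its means were 10.4, 8.72, 9.27 and 3.64 FPKM at days 0, 2, 4 and 7, and the change to day 4 was -0.01 ± 0.94 (SE), with an interval of -2.03 to 2.00 (95%).

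Of the 5 subunits of RNA polymerase I, only Polr1d rose at day 4, by limma. Polr1d is an assembly subunit that polymerases I and III share. It was measured at 11.4, 25.1, 19.1 and 8.98 at day 0, 22.7, 13.1, 23.1 and 17.2 at day 2, 30.3, 43.0, 61.2 and 49.97 at day 4 and 23.6, 18.7, 30.9 and 48.7 at day 7 FPKM. All day 4 libraries were above all of days 0 and 2, and overlapped those of day 7. The rise was 1.52 ± 0.37 (SE) (limma, adjusted p = 0.0276), with 1.05 in batch 1 and 1.99 in batch 2, and its call was lost in 5 of the 16 fits without 1 library.

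Polr1c is the partner of Polr1d in both polymerases. Its levels were 14.1, 3.41, 9.73 and 6.79 at day 0, 24.3, 14.1, 14.6 and 19.9 at day 2, 16.0, 12.3, 10.6 and 6.29 at day 4 and 9.33, 5.08, 25.7 and 20.9 at day 7 FPKM. The highest mean was at day 2, and the ranges of all days overlapped. Its changes were 1.12 ± 0.50 (SE) from day 0 to day 2 (limma, adjusted p = 0.48) and 0.45 ± 0.50 (SE) to day 4 (adjusted p = 0.662), with an interval of -0.63 to 1.52 (95%) for the second. The 2 largest subunits, Polr1a and Polr1b, form the catalytic centre and were scarce. Polr1a was at a mean of 0.747 FPKM at day 0 and 0.356 at day 4, and Polr1b at 2.43 and 3.21. Both reached 1 FPKM in 6 of the 16 libraries. Polr1e, which helps the enzyme to start and elongate, ranged over 0 to 4.53 FPKM at day 0 and 2.19 to 17.8 at day 4, with a change of 2.46 ± 0.87 (SE) that was not called (adjusted p = 0.112).

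**Figure D4:**
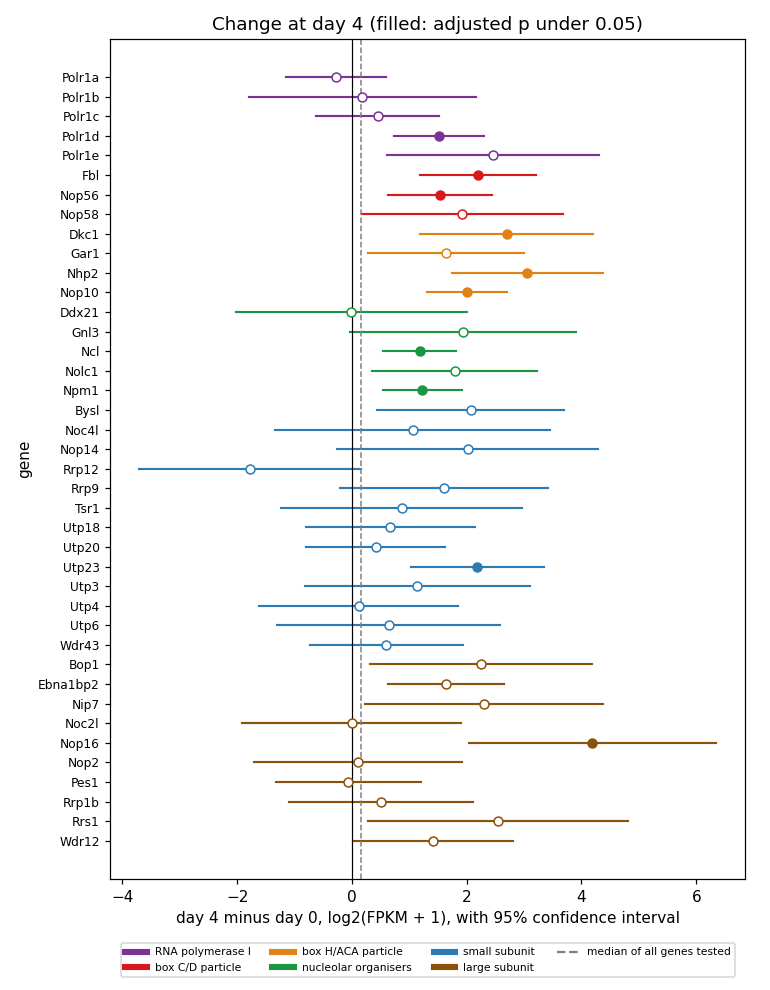
Points give the day 4 minus day 0 difference of log2(FPKM + 1) from the limma fit for each gene, lines its 95% confidence interval, colours the role, and filled points an adjusted p under 0.05. The dashed line is the median of all genes tested, 0.16, and 35 of the 40 points are above 0.

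Among the 13 small subunit factors, Utp23 rose from day 0 to day 4 and no other was called in any comparison. Utp23 takes part in releasing a snoRNA from the precursor of the small subunit RNA. Its values were 0.749, 0.0657, 0.181 and 0 at day 0, 0.135, 0.0597, 0 and 2.21 at day 2, 6.67, 2.38, 9.10 and 2.57 at day 4 and 0, 0.0173, 2.95 and 0 at day 7 FPKM. All 4 day 4 libraries were above 2 FPKM and above all of days 0 and 2, where most libraries were near 0. The change was 2.18 ± 0.54 (SE) (limma, adjusted p = 0.0319), with 1.90 in batch 1 and 2.47 in batch 2, and was lost in 6 of the 16 fits without 1 library. Of its exon bases, 11.53% overlap Gm34678 on the opposite strand, and libraries of this kind do not mark the strand.

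The small subunit list had the lower median change at day 4 of the 2 subunit lists, 0.87, with 12 of 13 changes above 0. Utp3, a factor of the processome that first packs the precursor, was at 50.3, 31.8, 1.71 and 1.56 at day 0, 24.0, 42.6, 17.9 and 53.1 at day 2, 26.1, 34.8, 2.77 and 73.7 at day 4 and 26.5, 13.3, 25.9 and 28.0 at day 7 FPKM. The libraries of day 0 and day 4 ran from under 3 to over 50 FPKM and overlapped, and the change was 1.14 ± 0.92 (SE) (limma, adjusted p = 0.527). Bysl, a late factor of the small subunit, had 0.020 to 17.1 FPKM at day 0, 1.72 to 9.38 at day 2, 18.2 to 25.3 at day 4 and 0.0276 to 9.34 at day 7. Its day 4 libraries overlapped no other day, but its change of 2.07 ± 0.76 (SE) from day 0 was not called (adjusted p = 0.129). Bysl shares 9.37% of its exon bases with Ccnd3 on the opposite strand, so reads there may come from either gene.

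Rrp12, which takes part in the export of subunits, was the one small subunit factor with a fitted change below 0 at day 4. It was at 0 to 17.0 FPKM at day 0 and 0 to 4.09 at day 4, with a change of -1.77 ± 0.91 (SE) that was not called (adjusted p = 0.288). The changes from day 0 to day 4 of Nop14 (2.02) and Noc4l (1.06), a pair of processome partners, and of Rrp9 (1.61), which binds the U3 snoRNA, were not called. The remaining factors Utp4, Utp6, Utp18, Utp20, Wdr43 and Tsr1, all parts of the small subunit precursor, had changes of 0.12, 0.64, 0.67, 0.41, 0.60 and 0.87. Their intervals all spanned 0. Tsr1 shares 32.3% of its exon bases with Srr on the other strand, so reads of the pair cannot be told apart there.

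Among the 10 large subunit factors, Nop16 alone rose from day 0 to day 4, and the median change was 1.53. Nop16 binds the large subunit precursor. Its levels were 10.3, 0.107, 0 and 21.03 at day 0, 0, 20.0, 5.50 and 15.9 at day 2, 68.4, 49.0, 65.3 and 133 at day 4 and 15.8, 14.9, 48.6 and 16.7 at day 7 FPKM. All day 4 libraries were above all 12 others, with day 7 replicate 3 just under the lowest of them, and the day 0 libraries ranged from a listed 0 to 21.03. The change from day 0 was 4.19 ± 1.01 (SE) (limma, adjusted p = 0.0274), with 4.06 in batch 1 and 4.33 in batch 2. It was the largest fitted change of the 40 genes. Its call was lost in 5 of the 16 fits without 1 library. It was also lost in 9 of the 14 other settings, voom among them.

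Pes1 joins Bop1 and Wdr12 in the complex that matures the large subunit RNA. Its values were 30.1, 43.1, 11.3 and 51.6 at day 0, 5.30, 21.9, 18.3 and 24.8 at day 2, 36.9, 13.1, 27.9 and 47.5 at day 4 and 15.4, 7.71, 16.6 and 50.03 at day 7 FPKM. The days overlapped, and the change to day 4 was -0.06 ± 0.59 (SE), with an interval of -1.33 to 1.21 (95%; limma, adjusted p = 0.966). Its partners had changes of 2.26 ± 0.91 (SE) for Bop1 (adjusted p = 0.164) and 1.42 ± 0.65 (SE) for Wdr12 (adjusted p = 0.231). The libraries of Bop1 did not overlap between day 0, at 0.150 to 16.4 FPKM, and day 4, at 18.5 to 41.6 FPKM. The 3 members of this complex thus had unlike fitted changes, whose differences were not tested. By the measure used for Fbl and Nop56, Wdr12 shares near-identical stretches with 6 other genes. Their summed mean was 12.3 FPKM against 2.86 for Wdr12, so its level is uncertain. For Pes1 there were 2 such genes, at 3.73 FPKM against 26.3.

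Ebna1bp2, an early assembly factor, came close to the threshold. It was at 16.1, 3.96, 12.1 and 7.73 FPKM at day 0 and 22.5, 23.4, 42.7 and 35.8 at day 4, with no overlap. The change was 1.64 ± 0.47 (SE) (limma, adjusted p = 0.0569). Nop2, a methyltransferase, and Noc2l, a partner of early large subunit particles, had changes of 0.11 and -0.01 to day 4. Both had day 7 libraries below all day 0 libraries, at 0.421 to 9.01 FPKM against 14.0 to 50.3 for Nop2 and 0.183 to 9.11 against 14.5 to 29.9 for Noc2l, but were not called (adjusted p = 0.27 and 0.291). In GENCODE M21, whose model of Noc2l is shorter than that of the table, 20.86% of its exon bases overlap Samd11 on the other strand, so its level is uncertain. The changes to day 4 of Nip7 (2.3), Rrs1 (2.55) and Rrp1b (0.51), further assembly factors, were not called. Rrs1 was listed at 0 in 5 libraries.

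The genes of the list differed in how closely they followed one another. As a description over the 16 libraries, the correlation of a gene's log2 level with the mean of the other 39 had a median of 0.543 and ran from -0.185 for Rrp12 to 0.836 for Nop56. It was above 0.5 for 22 of the 40 genes. Polr1a (-0.04) and Polr1c (-0.067) were also near 0, while another subunit of the polymerase, Polr1e, was at 0.721. The libraries share their depth and day, and no test was made of these values.

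Genes of the same pathway outside the list were described from lists of known function. The helpers that assemble snoRNA particles included 2 of 10 genes that rose at day 4 by limma, with a list median of 0.83. This was 20%, against 4.62% of all genes. None of the 10 was called with voom between day 0, 2 or 7 and day 4. Snu13, which binds the kink of box C/D RNA and completes that particle, went from a mean of 27.2 FPKM at day 0 and 21 at day 2 to 73.2 at day 4 and 23.8 at day 7. It rose by 1.34 ± 0.32 (SE) from day 0 to day 4 (adjusted p = 0.0276) and by 1.63 ± 0.32 from day 2 (adjusted p = 0.0428), and fell by 1.51 ± 0.32 to day 7 (adjusted p = 0.0321). Ruvbl2, a helicase of the assembly machine, rose from 13.5 to 55.1 FPKM between day 0 and day 4, by 2.03 ± 0.45 (adjusted p = 0.017), and fell by 2.31 ± 0.45 to day 7 (adjusted p = 0.0188). In both genes no day 4 library overlapped another day.

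Of 44 other large subunit factors, 3 rose at day 4 (limma): Rpf2, by 2.77 ± 0.70 (SE, adjusted p = 0.0331), Rsl1d1, by 1.39 ± 0.37 (adjusted p = 0.0444), and Mrto4, by 2.88 ± 0.80 (adjusted p = 0.0497). The 3 were 6.82% of the 44, near the 4.62% of all genes that rose. With voom 1 of the 44 rose, and their median was 1.12. Of 33 other small subunit factors none was called by limma (11 at an unadjusted p under 0.05, all higher, and none with voom), and their median was 1.07. Pno1 had the highest mean level among them and went from 11.2 to 77.6 FPKM, a change of 2.83 ± 0.96 (adjusted p = 0.0992). Of 15 other genes for transcription by RNA polymerase I, 1 rose by limma (6.67%), also near the share of all genes. This was Polr2f, a subunit common to the nuclear polymerases, with a change of 1.74 ± 0.44 (adjusted p = 0.0349). None of the 15 was called with voom, and their median was 0.78. Of 14 genes of the RNA exosome, which trims the precursors, none was called at day 4 (6 at an unadjusted p under 0.05, none with voom), with a median of 0.96.

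The transcription factor Myc drives many of these genes in growing cells. Of 7 tested genes of the MYC network, 0 were called at day 4 (limma). At an unadjusted p under 0.05, 3 were higher and 1 was lower, and none was called with voom. The median was -0.06, with 3 of the 7 changes above 0. As the network list joins Myc with genes such as Mxd4 and Mnt, this median does not measure the activity of Myc. Mlx, the most abundant of its genes, was at a mean of 9.22 FPKM at day 0 and 29.3 at day 4, a change of 2.07 ± 0.86 (adjusted p = 0.182). Myc itself, named after its values were seen, was at 1.76, 5.14, 0.0284 and 0.134 FPKM at day 0, 0, 0.954, 5.85 and 19.2 at day 2, 15.4, 7.97, 2.89 and 12.9 at day 4, and 4.02, 1.52, 0 and 0.0747 at day 7. Its day 4 libraries overlapped those of days 0, 2 and 7, and the change from day 0 to day 4 was 2.16 ± 0.92 (adjusted p = 0.19). Hosts of snoRNAs that encode no protein had 0 of 12 tested entries called at day 4 (limma; 3 at an unadjusted p under 0.05, none with voom) and a median of 0.05. Gas5, the most abundant of them, had means of 51.7 FPKM at day 0 and 23.8 at day 4, a change of -1.11 ± 0.39 (adjusted p = 0.108). Of 8 tested genes of the p53 response to nucleolar stress, Cdkn1a, an inhibitor of the cell cycle, rose by 2.51 ± 0.65 at day 4 by limma (adjusted p = 0.0373), but none was called with voom. This gene alone made 12.5% of the 8, against 4.62% of all genes that rose. The median of the 8 was 0.34, and 4 of the 8 changes were above 0.

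Cell cycle genes were high at both day 2 and day 4. Of 25 such genes, 8 rose at day 2 and 14 at day 4 against day 0 (limma; 6 and 11 with voom), with medians of 3.17 and 3.14, while the 40 biogenesis genes had medians of 0.12 and 1.47 in the same comparisons. The limma calls were 32% and 56% of the 25 cell cycle genes, against 0.25% and 4.62% of all genes that rose. Between day 2 and day 4 the median of the cell cycle genes was -0.25. It was 1.28 in batch 1 and -1.33 in batch 2, so that the batches went opposite ways. None was called by limma (4 at an unadjusted p under 0.05, none with voom), as against 3 of the 40 biogenesis genes, with medians of 1.25 and 1.21 in the batches. Their summed level was 74.2 to 108 FPKM at day 0, 641 to 1336 at day 2, 398 to 1369 at day 4 and 144 to 349 at day 7. The day 2 and day 4 sums overlapped, whereas those of the 40 biogenesis genes did not. The difference between the lists was not tested.

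**Figure D5:**
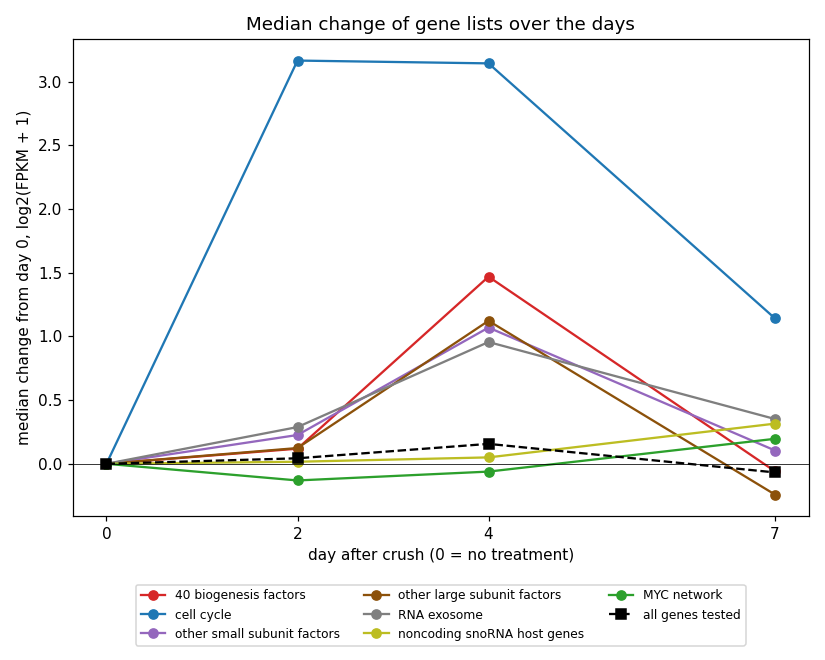
Lines join the median change from day 0, in log2(FPKM + 1), of each gene list at days 2, 4 and 7 after crush, with all genes tested as the dashed line. The 40 genes are at 0.12, 1.47 and -0.06, and the cell cycle genes at 3.17, 3.14 and 1.14.

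The promoters of the list were searched for CACGTG, the E-box that MYC proteins prefer, which reads the same on both strands. The RefSeq table (GRCm38.p6) held 33 of the 40 genes, with 250 bases before and 50 after the start of the transcript. The motif was found in 7 of the 33 genes (21.2%): Nop2, Pes1, Tsr1, Utp18, Utp20, Utp4 and Wdr43. It was in 11.8% of 8833 tested genes with a promoter in the table and in 8.09% of all 27025 genes there. None of the 9 searched genes that were called in a comparison held the motif, and 7 of the 24 others did. A match is a description of the letters and no evidence of binding. As examples, the promoters of Nop2, with the motif in capitals starting 60 bases before the start of the transcript, and of Nop56, without it, are printed 5′ to 3′.
Nop2, chr6:125131633-125131932, plus strand: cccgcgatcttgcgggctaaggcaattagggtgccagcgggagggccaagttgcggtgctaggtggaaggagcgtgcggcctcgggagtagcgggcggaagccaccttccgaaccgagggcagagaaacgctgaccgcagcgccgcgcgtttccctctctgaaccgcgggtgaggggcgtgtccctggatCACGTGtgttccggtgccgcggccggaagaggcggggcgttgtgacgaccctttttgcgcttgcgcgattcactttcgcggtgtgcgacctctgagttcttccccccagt
Nop56, chr2:130274162-130274461, plus strand: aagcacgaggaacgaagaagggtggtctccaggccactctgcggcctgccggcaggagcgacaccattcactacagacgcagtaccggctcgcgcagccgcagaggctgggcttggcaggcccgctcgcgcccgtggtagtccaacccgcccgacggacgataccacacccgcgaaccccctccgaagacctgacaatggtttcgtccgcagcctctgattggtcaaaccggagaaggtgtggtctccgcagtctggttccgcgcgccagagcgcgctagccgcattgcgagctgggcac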

How the data were processed

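RNA sequencing was made of 16 libraries of sorted cells, grouped and numbered by the labels. The deposited table gives FPKM per gene, which the authors made from reads mapped with STAR 2.7.2b and counted with featureCounts 1.6.1 on GRCm38.p6, per the submitters' processing notes. The handling of multimapping reads is not given in the sources used. The values were multiples of 0.01 read in every library (tolerance 0.02), so library totals could be recovered, but only 47.4% to 63.8% of the values above 0 were whole reads, and the values were therefore tested as FPKM. Amplified reads are not independent molecules.

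A gene entered the test with 1 FPKM or more in 4 or more libraries. Testing used limma 3.58.1 under R 4.3.3, with eBayes and a trend, on log2(FPKM + 1), a scale that understates the change of low genes. A single fit of all 16 libraries held the 4 days and the batch, taken as the first 4 digits of the title code, which is a reading of the titles and no batch that the labels name. All tests were two-sided, with Benjamini-Hochberg adjustment over all genes tested and a threshold of 0.05. The script was checked on simulated data. The 40 genes, the lists and the tests were chosen with earlier results of these data known. Values in every library were given for genes called in any of the 6 comparisons and for at least 2 genes per role, taking those with the highest mean FPKM where fewer were called. Of other lists, at most 3 called genes, or the most abundant one, were named. Alternatives covered the pseudocount, the filter, the scaling, the batch term, the replicate number, marker levels as covariates, voom on the recovered reads and leaving out each library. Near copies were searched with BLAST 2.17.0, snoRNA genes were read from GENCODE M21 (GRCm38), and promoters from RefSeq (GRCm38.p6). Protein sequences were not used here. One gene of the likeness ranking is not reported here.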

Additional observations from a re-analysis of the deposited data

Results flagged for a closer look

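In 8 of the 68 groups of 4 libraries looked at (17 values at 4 days), the highest or lowest library stood apart from the other 3, with a gap beyond Dixon's 95% critical value. Chance gives about 1 in 20 such groups only where values spread normally and the groups are independent. Some of these FPKM values were near 0, and all came from the same libraries. The count of 8 in 68 therefore cannot be read as an excess. At day 7, replicate 3 was above the others for Nhp2 (53.8 FPKM against 30.7 to 32.9), for Nop16 (48.6 against 14.9 to 16.7) and for Utp23 (2.95 against 0 to 0.0173), replicate 1 was above them for Npm1 (348 against 183 to 197), and replicate 2 was below them for Utp3 (13.3 against 25.9 to 28.0). At day 2, replicate 3 was above the others for Fbl (14.1 FPKM against 2.60 to 3.37), replicate 2 for Nolc1 (2.97 against 0.0358 to 0.474) and replicate 4 for Utp23 (2.21 against 0 to 0.135).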

How the results depend on the processing

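The alternatives were run for 23 changes of single genes of the 40. These were the called changes and those where all 4 day 4 libraries lay above all 4 day 0 libraries. They kept their direction in all alternatives, which this choice made likely beforehand. Of these values, 441 stayed on their side of the threshold, 244 lost the call and 4 gained it. The 441 include values of Nop58, Gar1, Bop1, Ebna1bp2, Nolc1 and Bysl from day 0 to day 4. Those changes were not called in the main fit and could not lose a call. With voom, Dkc1, Nop16 and Utp23 lost their calls from day 0 to day 4. Nhp2 and Nolc1 lost theirs from day 2 to day 4, and Gar1 and Nolc1 from day 4 to day 7. Between day 0 and day 4, where 10 of the 40 genes were called, the count was 6 with a pseudocount of 0.1, 3 with no filter, 2 with median-of-ratios scaling, 3 with the full title code in place of the batch, 3 with only those days in the fit, 1 in batch 1 alone, 0 in batch 2 alone and 0 with the bipolar and Mueller lists as covariates (2 to 10 without 1 library). Between day 2 and day 4 (3 called) these gave 1 with the pseudocount, 0 with no filter, 1 with the scaling, 0 with the title code, 0 in either batch and 0 without the libraries titled F (0 to 3 without 1 library). Between day 4 and day 7 (4 called) they gave 2 with the pseudocount, 1 with no filter, 1 with the scaling, 1 with the title code, 0 with only those days, 0 in either batch, 0 with the covariates and 2 with voom (1 to 4 without 1 library). The F test (5 called) gave 3 with the pseudocount, 1 with no filter, 3 with the scaling and 3 with no batch term.

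The median change to day 2 was -0.38 in batch 1, 0.72 in batch 2 and 0.55 with the covariates (-0.02 to 0.24 without 1 library). That to day 4 was 1.06 with the scaling, 0.76 in batch 1 and 2.02 with the covariates (1.26 to 1.54). From day 2 to day 4 it was 1.62 with the pseudocount and 1.55 without the libraries titled F (1.10 to 1.33). From day 2 to day 7 it was 0.10 in batch 1 and 0.23 without the libraries titled F (-0.51 to -0.02), and from day 4 to day 7 it was -1.06 with the scaling (-1.60 to -1.29).

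With the replicate block in place of the batch, 6 of the 40 genes were called between day 0 and day 4 and 1 between day 2 and day 4. Only 5 of 24 same-numbered pairs of libraries correlated above 0.1 in their deviations from the day means, and the highest correlation was 0.234. This gave little sign that the numbers pair the samples, but low correlations cannot exclude such a pairing. The cause of these moves was not tested. Each day has 4 libraries, which limits the precision, and many genes were near the level of few reads in some libraries.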

Other observations

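Outside the 40 genes, 5719 named genes of 5 FPKM or more on average were ranked by likeness. The measure was how closely their log2 level followed the mean of the 40 genes over the 16 libraries. Those near the top included Ddx49 (Pearson r = 0.894), Szrd1 (0.881), Nup62 (0.879) and Psmd3 (0.873), which are in none of the pathway lists. Ddx49 is an RNA helicase, Nup62 a protein of the nuclear pore and Psmd3 a subunit of the proteasome. Mean levels at days 0, 2, 4 and 7 were 5.12, 3.90, 21.7 and 2.79 FPKM for Ddx49, 2.57, 4.34, 11.3 and 3.59 for Szrd1, 1.81, 5.15, 24.4 and 4.96 for Nup62, and 10.3, 17.7, 43.2 and 8.50 for Psmd3. All 4 were thus highest at day 4. The genes were chosen by this likeness, so it is a description and carries no test, and the libraries share their depth and day.

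In the lists of other pathway genes, both directions were called after day 4. C1d, a cofactor of the RNA exosome, rose by 1.41 ± 0.34 (SE) from day 4 to day 7 (limma, adjusted p = 0.0487), from a mean of 24.7 to 64.8 FPKM, with all 4 day 7 libraries above all 4 of day 4. Rrp1, a large subunit factor, fell, as the median of the 40 genes did, by 1.59 ± 0.35 between the same days (limma, adjusted p = 0.0355). Its mean went from 84.0 to 29.6 FPKM. Rrp1 was 2.27% of the 44 other large subunit factors, against 1.5% of all genes that fell. None of the 44 fell with voom, while 1 of the 14 exosome genes rose with voom.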
